A study of Homo sapiens with 12 samples.

Results

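Expression was compared between MM.1S cells given PIM447 together with pomalidomide and dexamethasone (PIM-Pd) and cells given pomalidomide and dexamethasone alone (Pd). The comparison holds 6 of the 12 arrays of the series, 3 for each treatment, chosen by their treatment labels and paired by biological replicate 1 to 3. MM.1S is an established human multiple myeloma line, PIM447 is an inhibitor of all PIM kinases, and each array gave a log2 expression value for 17710 probe sets, where a probe set stands for a gene. Pd cells received 200 nM pomalidomide and 5 nM dexamethasone for 15 h. PIM-Pd cells received the same doses of both drugs plus 100 nM PIM447, and for 10 h. The other 6 arrays, 3 of untreated cells (Control) and 3 of cells given 100 nM PIM447 alone for 24 h (PIM), entered the same fit and serve here as background. Per the labels, cells of the treated groups were collected at a viability of 74 to 81%. The model is limited to 1 cell line, and no treated group shares its exposure time with another, so the presence of PIM447 and the shorter exposure cannot be told apart in any difference between PIM-Pd and Pd.

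PIM kinases are serine/threonine kinases that lack a regulatory domain, so their activity follows their abundance, and they favour cap-dependent translation and survival in myeloma plasma cells. Pomalidomide binds cereblon, the substrate receptor of a ubiquitin ligase, and directs it to the transcription factors IKZF1 and IKZF3, which maintain IRF4 and MYC, while dexamethasone activates the glucocorticoid receptor and its target genes. MYC in turn drives genes of ribosome biogenesis, the multistep assembly of ribosomes that sets the capacity for protein synthesis.

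The deposited values carry gene identifiers without symbols. A symbol could be assigned to 1909 of the 17710 probe sets (10.8%), through tables in which the study lists genes that differed from untreated cells in these same samples. The named probe sets are therefore a selected part of the array, and counts among them are not independent evidence of a direction.

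The arrays were checked against their labels before the comparison. Of 10 plasma cell markers 3 could be named, and over the 6 arrays CD38 lay between 8.48 and 9.03, SLAMF7 between 9.37 and 9.95 and IRF4 between 8.89 and 9.03. CD3E, the only named member of 9 T and NK cell markers, lay between 3.82 and 4.41, and CR2, the only named member of 6 mature B cell markers, between 3.88 and 4.75. No level is set against that of another probe set, since probes differ in their response. None of these 5 markers passed the test between PIM-Pd and Pd, with median differences of 0.25 over the plasma cell markers, -0.10 for CD3E and -0.07 for CR2, and 2 of the 3 plasma cell markers were higher at an unadjusted p under 0.05. The 8 monocyte and macrophage, 8 bone marrow stroma and 6 erythroid markers have no name here. Known glucocorticoid targets were higher than in Control in both groups. DDIT4, a glucocorticoid-induced inhibitor of mTORC1, was higher by 4.02 with Pd and by 3.96 with PIM-Pd. For TSC22D3, the glucocorticoid-induced leucine zipper, the differences were 2.49 and 2.82. The differences with Pd and with PIM-Pd use the same Control arrays. Every array given dexamethasone also received pomalidomide, so dexamethasone and pomalidomide cannot be told apart here.

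One array stood apart. PIM-Pd replicate 1 had a score of 26.2 on the second principal component (15.0% of the variance), where PIM-Pd replicates 2 and 3 had -2.16 and -2.88. Replicates 1 and 2 of PIM447 alone lay on its side of that component, at 14 and 15. Its correlation with the other PIM-Pd arrays was 0.987, against 0.99 between those, and the 3 Pd arrays correlated at 0.992 to 0.993. The 3 arrays of PIM447 alone correlated at 0.987 to 0.988, much like PIM-Pd replicate 1 with its group. The SD of the residuals from the fit was 0.147 both for PIM replicate 2 and for PIM-Pd replicate 1, so the latter is not the only variable array of the series. What sets PIM-Pd replicate 1 apart was not tested. Called genes, the fixed genes and the correlation between comparisons are given with and without it. List medians are given with it, and then either without it or as a range over fits with 1 array left out. Lists with fewer than 4 named members and the promoter shares are given with it only.

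Adding PIM447 to Pd came with a small set of changes past the threshold. By limma, with Benjamini-Hochberg adjustment over 17710 probe sets and a threshold of 0.05 on the adjusted p, 11 probe sets differed between PIM-Pd and Pd (0.0621%). Of these, 3 rose (0.0169%), namely VIM, AKR1C3 and the unnamed ENSG00000087074, and 8 fell (0.0452%), namely GRHL3, TGFBR3, KYAT1, WDR77, ARHGAP6, RAB15, PPIF and STEAP3. All 11 differed in the same direction in the 3 pairs, and in all 11 the 3 PIM-Pd arrays did not overlap the 3 Pd arrays. Over all probe sets, PIM-Pd arrays lay wholly above Pd arrays in 6.66% and wholly below in 7.79%.

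Changes were also small in size. The median difference over all probe sets was 0.00 (5th percentile -0.32, 95th percentile 0.29), with a median SE of 0.13, and 4 probe sets differed by at least 2-fold. At an unadjusted p under 0.05, 816 probe sets were higher (4.61%) and 1018 lower (5.75%). Among the 1909 named probe sets 164 were higher (8.59%) and 451 lower (23.6%), with a median of -0.11, and these counts carry the selection of the named probe sets. The 3 replicate pairs shared little of this: across probe sets the differences of pair 1 and pair 2 correlated at r = 0.107, of pairs 1 and 3 at 0.206 and of pairs 2 and 3 at 0.168 (n = 17710 probe sets, which are not independent replicates, from arrays normalized together).

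**Figure D1:**
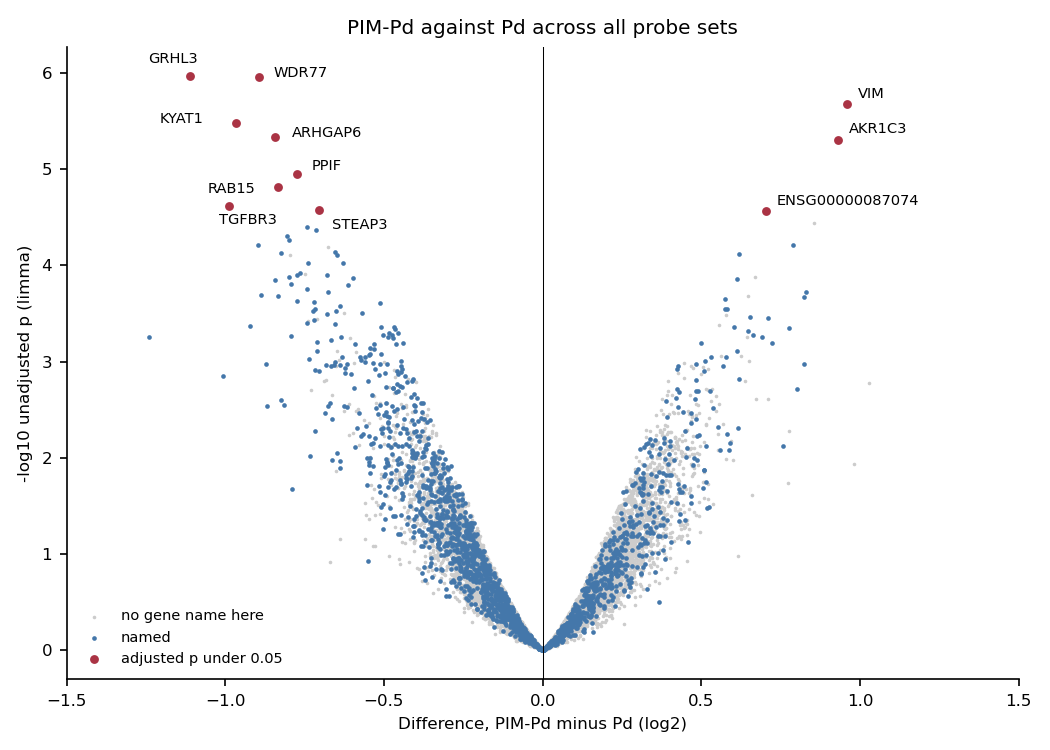
Difference between PIM-Pd and Pd (log2, x axis) against the unadjusted limma p (-log10, y axis) for 17710 probe sets. Red points are the 11 probe sets past the adjusted threshold, with 3 to the right of 0 and 8 to the left, and blue points are the 1909 named probe sets, whose median lies at -0.11.

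The number of arrays limits the precision, and the count of 11 depended on single arrays. Without PIM-Pd replicate 1 there were 5 calls, all lower, of which 4 were among the 11. The count was 1 without PIM-Pd replicate 3, a call not among the 11, and 1 without Pd replicate 1. It was 4 without Pd replicate 2 (3 of them among the 11), 7 without Control replicate 1, 7 without Control replicate 3 and 6 without PIM replicate 3. Without PIM-Pd replicate 2 there were 15 calls, of which 6 were among the 11. Another 12 were called without PIM replicate 2 (10 among the 11), 10 without Control replicate 2 (9) and 9 without PIM replicate 1 (7). Without Pd replicate 3 limma called 0, with 1514 probe sets at an unadjusted p under 0.05. All 11 kept their sign in each of these fits, which adds little, since their PIM-Pd and Pd arrays did not overlap to begin with. The fit of the 6 PIM-Pd and Pd arrays alone, with their pairing and without the other 6 arrays, called 0 by limma, with 1844 probe sets at an unadjusted p under 0.05 and a smallest adjusted p of 0.104.

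Among the genes that rose, vimentin (VIM), the intermediate filament of mesenchymal and lymphoid cells, measured 7.60, 8.33 and 8.19 in Pd replicates 1 to 3 and 8.80, 8.96 and 9.24 in PIM-Pd replicates 1 to 3. Every PIM-Pd array exceeded every Pd array, and also every Control array (7.86, 8.30 and 8.34). Its difference was 0.96 (SE 0.119, 1.95-fold, adjusted p = 0.0125), with pair differences of 1.20, 0.63 and 1.05. Pd alone differed from Control by -0.13, and PIM447 alone by 0.06. Leaving out PIM-Pd replicate 1 gave a VIM difference of 0.88 with an adjusted p of 0.0532, and the fit without the pairing gave an adjusted p of 0.122.

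AKR1C3, an aldo-keto reductase that reduces steroids and prostaglandins, measured 3.99, 4.40 and 4.17 with Pd and 4.97, 5.23 and 5.16 with PIM-Pd. The pairs differed by 0.98, 0.83 and 0.99, a narrow range. The fitted AKR1C3 difference was 0.93 (SE 0.125, adjusted p = 0.0146). Its signal was not tested against background and it was removed with the dimmer probe sets in a stricter filter, so no fold is given. It was 0.92 without PIM-Pd replicate 1, with an adjusted p of 0.066, and the adjusted p without the pairing was 0.0806. Set against Control, AKR1C3 differed by 1.27 with PIM-Pd (adjusted p = 5.97e-05) and by 0.33 with Pd (adjusted p = 0.154).

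The third probe set that rose, ENSG00000087074, was close to constant with Pd, at 5.90, 5.88 and 5.89, and measured 6.74, 6.54 and 6.50 with PIM-Pd. Here the Pd group was the one away from Control, by -0.45 (adjusted p = 0.0306), while PIM-Pd differed from Control by 0.26 (adjusted p = 0.192). Its difference between PIM-Pd and Pd was 0.70 (SE 0.112, 1.63-fold, adjusted p = 0.0443). The call was lost without PIM-Pd replicate 1 (0.69, adjusted p = 0.152) and without the pairing (adjusted p = 0.0607).

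**Figure D2:**
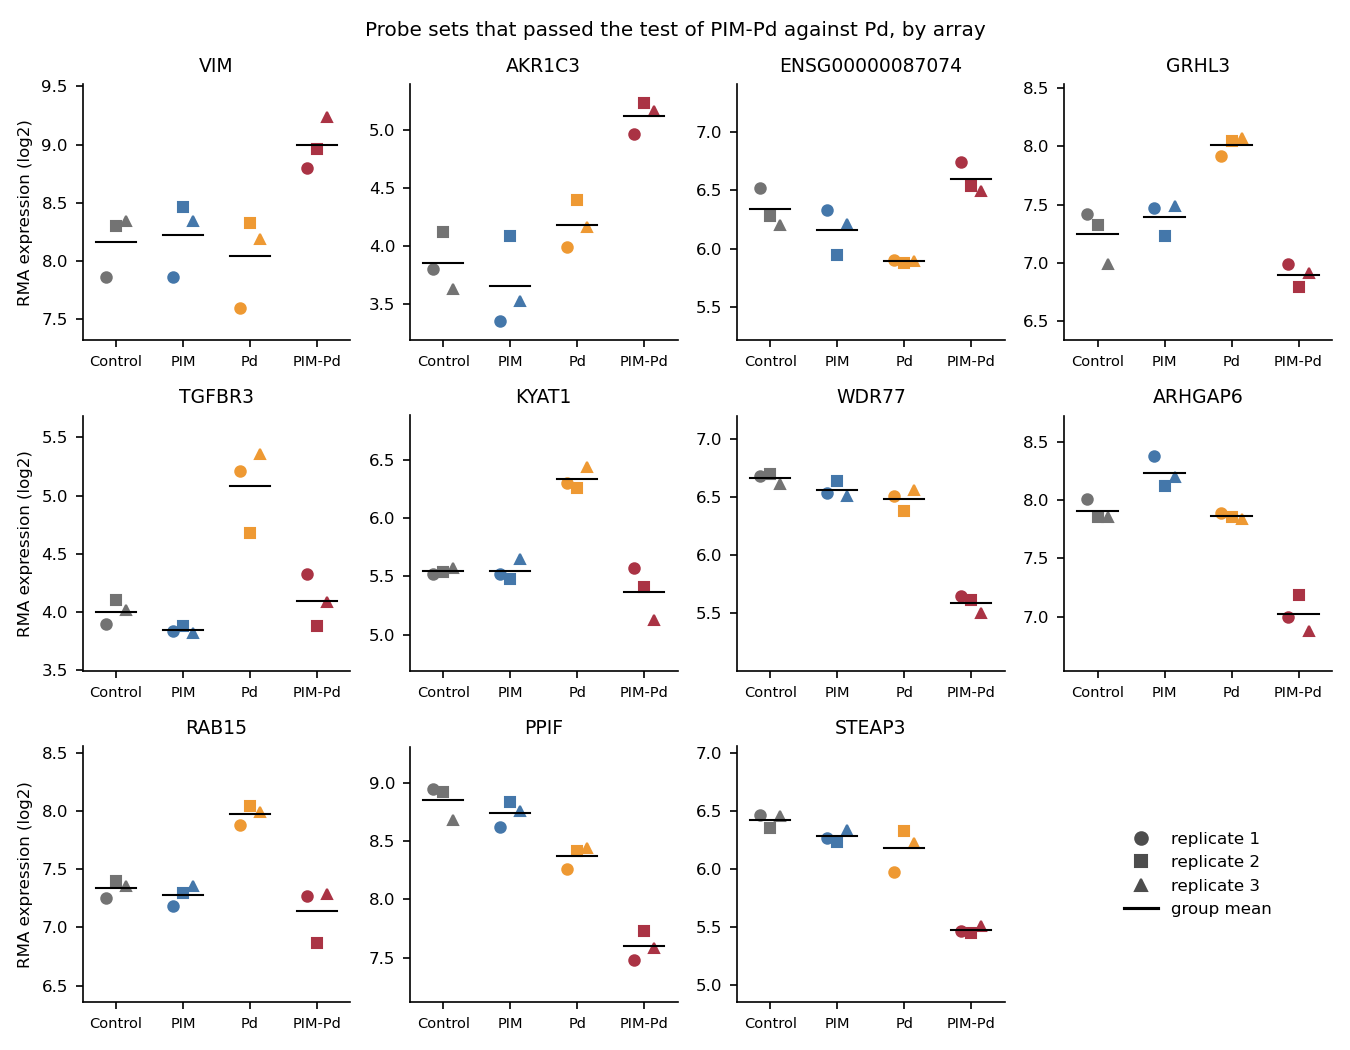
RMA expression (log2, y axis) of the 11 probe sets past the threshold in each of the 12 arrays by group (x axis), with the symbol giving the replicate and the bar the group mean. In every panel the 3 PIM-Pd arrays and the 3 Pd arrays do not overlap, as for WDR77 with 5.65, 5.61 and 5.50 against 6.51, 6.38 and 6.56.

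Of the 8 genes that fell, 4 were genes that Pd alone had raised above untreated cells, as it did 738 of 17710 probe sets (4.17%), although both counts use the same Pd arrays. GRHL3, a grainyhead-like transcription factor best known from epithelia, measured 7.92, 8.04 and 8.07 with Pd and 6.99, 6.79 and 6.91 with PIM-Pd. No PIM-Pd value reached the lowest Pd value, and the Control arrays (7.42, 7.32 and 6.99) lay below all Pd arrays. The GRHL3 difference was -1.11 (SE 0.13, 2.16-fold, adjusted p = 0.00979), the one called difference beyond 2-fold. Against Control it was higher by 0.77 with Pd (adjusted p = 0.00325), and with PIM-Pd the difference was -0.35 (adjusted p = 0.122). Leaving out PIM-Pd replicate 1 kept the call, at -1.13 with an adjusted p of 0.046.

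TGFBR3, or betaglycan, a co-receptor that presents TGF-beta ligands, measured 5.22, 4.68 and 5.35 with Pd and 4.33, 3.88 and 4.08 with PIM-Pd. Pd replicate 2 was the lowest of its group and still above the highest PIM-Pd array. TGFBR3 fell by 0.99 (SE 0.154, adjusted p = 0.0443), after a difference of 1.08 between Pd and Control (adjusted p = 0.000966). Without PIM-Pd replicate 1 its adjusted p was 0.0532, at -1.10. TGFBR3 too was removed by the stricter filter on dim probe sets, and no fold is given for it.

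KYAT1, a kynurenine aminotransferase of tryptophan breakdown, measured 6.31, 6.26 and 6.44 with Pd and 5.57, 5.41 and 5.13 with PIM-Pd. The PIM-Pd arrays did not overlap the Pd arrays, and Control measured 5.52, 5.54 and 5.57. The KYAT1 difference was -0.97 (SE 0.125, 1.95-fold, adjusted p = 0.0146), and -1.08 without PIM-Pd replicate 1 (adjusted p = 0.046). Pd raised it above Control by 0.79 (adjusted p = 0.00201).

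RAB15, a small GTPase of endosomal recycling, measured 7.88, 8.05 and 8.0 with Pd and 7.27, 6.87 and 7.29 with PIM-Pd, with replicate 2 the lowest of the latter. The groups did not overlap. RAB15 fell by 0.83 (SE 0.125, 1.78-fold, adjusted p = 0.034), and by 0.94 without PIM-Pd replicate 1 (adjusted p = 0.0462). For all 4 of these genes the comparisons of Pd with Control and of PIM-Pd with Pd use the same Pd arrays, so an array that is high by chance would enter both, with opposite sign. With PIM-Pd, none of the 4 differed from Control at the threshold (adjusted p 0.122 for GRHL3, 0.824 for TGFBR3, 0.5 for KYAT1 and 0.426 for RAB15), which does not show that they were at the untreated level. They were grouped after their values were seen.

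The other 4 genes that fell were lower than in Control with PIM-Pd. WDR77, the partner subunit of the arginine methyltransferase PRMT5 in spliceosome and histone methylation, measured 6.51, 6.38 and 6.56 with Pd and 5.65, 5.61 and 5.50 with PIM-Pd. All 9 arrays without the combination lay between 6.38 and 6.70, and the 3 PIM-Pd arrays well under them. Its difference from Pd was -0.89 (SE 0.105, 1.86-fold, adjusted p = 0.00979), and its call remained without PIM-Pd replicate 1 (-0.92, adjusted p = 0.046). Against Control WDR77 differed by -0.18 with Pd (adjusted p = 0.408) and by -1.08 with PIM-Pd (adjusted p = 5.17e-05).

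ARHGAP6, which accelerates the GTPase activity of RhoA, measured 7.89, 7.85 and 7.84 with Pd and 7.0, 7.19 and 6.87 with PIM-Pd. Its Pd arrays were nearly identical, with an SD of 0.02 (n = 3). ARHGAP6 fell by 0.84 (SE 0.113, 1.79-fold, adjusted p = 0.0146), and the difference was -0.79 without PIM-Pd replicate 1 (adjusted p = 0.066). PPIF, or cyclophilin D, a mitochondrial matrix prolyl isomerase of the permeability transition, measured 8.26, 8.42 and 8.44 with Pd and 7.48, 7.73 and 7.58 with PIM-Pd. It stepped down in both comparisons, by -0.48 from Control to Pd (adjusted p = 0.0224) and by -0.78 from Pd to PIM-Pd (SE 0.113, 1.71-fold, adjusted p = 0.0286). Without PIM-Pd replicate 1 the PPIF difference was -0.74 (adjusted p = 0.116).

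STEAP3, a ferrireductase of endosomal iron uptake, measured 5.98, 6.33 and 6.23 with Pd and 5.46, 5.44 and 5.51 with PIM-Pd. The PIM-Pd arrays were tightly grouped (SD 0.04, n = 3) and under every other array. STEAP3 fell by 0.70 (SE 0.111, 1.63-fold, adjusted p = 0.0443), and had an adjusted p of 0.118 at -0.73 without PIM-Pd replicate 1. It kept its call in the smallest number of fits among the 11, 7 of 25, while GRHL3 and WDR77 were called in 18 of 25.

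A fixed set of 20 genes, 16 of them named, was also examined. MYC, IRF4, CCND2, CDK4, FBL, PFKM, PGK1 and ACACA are in it because the study followed them by RT-qPCR after its own work with these same arrays, so their direction here is not independent evidence, and the others belong to the drugs' known targets and effectors. MYC measured 9.04, 9.10 and 8.99 with Pd and 8.50, 8.76 and 8.66 with PIM-Pd. The groups did not overlap, and the 3 pairs differed by -0.54, -0.34 and -0.33. The fitted MYC difference was -0.41 (95% interval -0.67 to -0.14), which did not pass the threshold (adjusted p = 0.268). Against Control, MYC was lower by -0.44 with Pd (adjusted p = 0.0475) and by -0.85 with PIM-Pd (adjusted p = 0.000693), and these 2 comparisons share the Control arrays.

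IRF4, the transcription factor on which myeloma cells depend, gave nearly the same level in both groups. It measured 8.90, 9.03 and 8.96 with Pd and 9.01, 8.92 and 8.89 with PIM-Pd, and the values overlapped. Its difference was -0.02 (95% interval -0.29 to 0.24, adjusted p = 0.97), and its sign changed with the scaling, to 0.01 after quantile normalization and 0.02 after cyclic loess. Set against Control it was lower by -1.10 with Pd and by -1.12 with PIM-Pd. The intervals of MYC and IRF4 overlapped, and a difference between both genes was not tested.

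**Figure D3:**
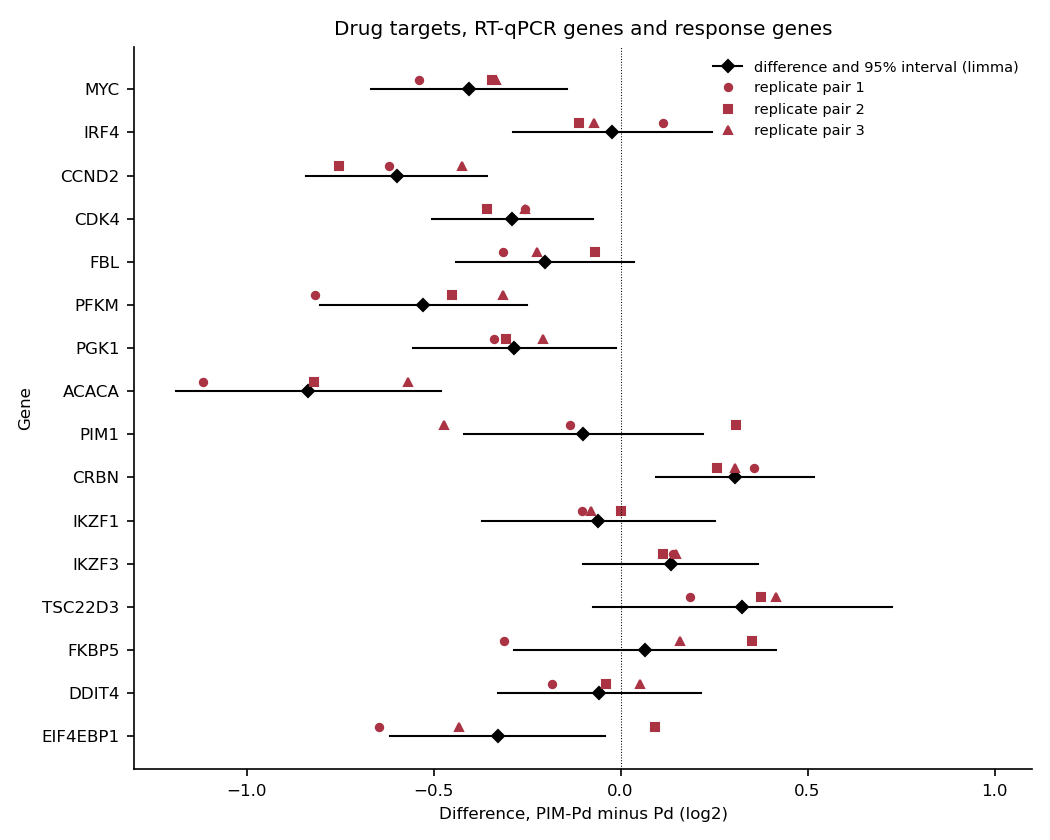
Difference between PIM-Pd and Pd (log2, x axis) for the 16 named genes of the fixed set (y axis), as the limma estimate with its 95% interval (diamond and line) and the difference in each replicate pair (red symbols). The intervals of MYC, CCND2, CDK4, PFKM, PGK1, ACACA and EIF4EBP1 lie below 0, that of CRBN (0.09 to 0.52) lies above it, and none of the 16 passed the adjusted threshold.

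PIM1, a drug target, had 7.57, 7.59 and 7.60 with Pd and 7.44, 7.90 and 7.13 with PIM-Pd. The Pd arrays were alike and the PIM-Pd arrays lay on both sides of them. Its difference was -0.10 (95% interval -0.42 to 0.22, adjusted p = 0.877), beside -0.99 for Pd and -1.09 for PIM-Pd against Control. PIM2, PIM3, NR3C1 and EIF4E have no name here and are not reported. The cereblon gene CRBN gave 7.42, 7.34 and 7.36 with Pd against 7.78, 7.60 and 7.67 with PIM-Pd, apart in all arrays, for a difference of 0.31 (95% interval 0.09 to 0.52, adjusted p = 0.296). IKZF1 (-0.06, 95% interval -0.37 to 0.25) and IKZF3 (0.13, 95% interval -0.10 to 0.37), whose proteins cereblon degrades under pomalidomide, did not differ at the threshold at the level of RNA.

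Glucocorticoid targets gave wide intervals around small differences. TSC22D3 differed by 0.33 (95% interval -0.07 to 0.73, adjusted p = 0.577). FKBP5, a co-chaperone of the receptor, differed by 0.07 (95% interval -0.28 to 0.42) and DDIT4 by -0.06 (95% interval -0.33 to 0.21). These estimates were small beside the differences of 2.49, 1.73 and 4.02 between Pd and Control. The intervals reached 0.73 for TSC22D3 and 0.42 for FKBP5, so larger differences are not excluded. Exposure also differed (10 h with PIM-Pd, 15 h with Pd), so drug and time cannot be told apart. The list of 30 glucocorticoid receptor targets had 10 named members, 5 above and 5 below 0, with a median of 0.00, and 1 member higher and 1 lower at an unadjusted p under 0.05. The count higher was 2 without PIM-Pd replicate 2, Pd replicate 1, PIM replicate 1 or PIM replicate 2, and the count lower was 0 without Pd replicate 1 and 2 without PIM-Pd replicate 2 or Pd replicate 3. The higher one was BIRC3, an inhibitor of apoptosis, at 0.71 (adjusted p = 0.104).

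The genes of the cell cycle and of metabolism that were taken from the study did not pass the adjusted threshold, and nothing is read from their shared direction. CCND2, the D-type cyclin of this line, measured 11.49, 11.59 and 11.54 with Pd and 10.87, 10.83 and 11.12 with PIM-Pd. The groups were apart by more than the spread within either. The CCND2 difference was -0.60 (95% interval -0.84 to -0.36, 1.51-fold, adjusted p = 0.0715). Its partner kinase CDK4 differed by -0.29 (95% interval -0.50 to -0.07, adjusted p = 0.331), also with arrays apart. ACACA, acetyl-CoA carboxylase, which commits carbon to fatty acid synthesis, measured 6.11, 5.93 and 5.83 with Pd and 4.99, 5.11 and 5.26 with PIM-Pd. Again no arrays overlapped, and the difference was -0.83 (95% interval -1.19 to -0.48, 1.78-fold, adjusted p = 0.0854). The glycolytic enzymes PFKM (-0.53, 95% interval -0.80 to -0.25) and PGK1 (-0.28, 95% interval -0.56 to -0.01) and the nucleolar methyltransferase FBL (-0.20, 95% interval -0.44 to 0.04) also missed the threshold, with adjusted p of 0.147, 0.466 and 0.559.

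The same genes were fitted without PIM-Pd replicate 1, and none of the 16 passed the threshold there either. MYC kept a similar difference, -0.43 (adjusted p = 0.404), as did ACACA at -0.84 and CCND2 at -0.54 (both with an adjusted p of 0.259). IRF4 went to -0.14 (adjusted p = 0.838) and FKBP5 to 0.26 (adjusted p = 0.722), further from 0 than with all arrays, and PFKM to -0.37 (adjusted p = 0.394) and FBL to -0.13 (adjusted p = 0.846), nearer to it. DDIT4 changed sign at a value near 0, to 0.02. CDK4 had -0.32, PGK1 -0.21, PIM1 -0.02, CRBN 0.30, IKZF1 -0.15 and IKZF3 0.09. TSC22D3 had 0.24 and EIF4EBP1 -0.25.

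Gene lists were described by counts and medians, since limma called 0 members in each list with a named member. Of the 33 lists 2 had no named member and could hold no call. Other fits called single members: with a variance prior following mean intensity 1 each in the ribosome biogenesis, mTORC1, ATF4, cyclin D, glucocorticoid and NF-kB lists, with array weights or without the pairing 1 in the ATF4 list, and without replicate 2 or PIM-Pd replicate 2 alone 1 in the mTORC1 list. The counts given for lists are therefore of members at an unadjusted p under 0.05, to be read against 4.61% higher and 5.75% lower over all probe sets and 8.59% and 23.6% over the named ones, and the medians against 0.00 and -0.11. List members carry the selection of the named probe sets with them. Cytosolic ribosomal proteins (0 of 79 members named) and replication-dependent histones (0 of 39) could not be described.

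Ribosome biogenesis had the most members on the lower side, and also the most named members, so that its count is not a rank by share. Of 47 factors 26 were named, 25 of them below 0 and 16 lower at an unadjusted p under 0.05, with none higher and a median of -0.37. The median was -0.53, -0.25 and -0.43 in pairs 1 to 3, and without PIM-Pd replicate 1 it was -0.31 with 11 members lower. UTP20, a component of the small-subunit processome, measured 6.35, 6.49 and 6.47 with Pd and 5.31, 5.89 and 5.79 with PIM-Pd. Its groups were apart, with PIM-Pd replicate 1 the lowest array, and the difference was -0.77 (adjusted p = 0.0715). NOL6, a nucleolar RNA-associated protein, had -0.72 (adjusted p = 0.0902), and the RNA helicase DDX21 had -0.71 (adjusted p = 0.139). The largest difference was that of dyskerin (DKC1), the pseudouridine synthase of snoRNPs, at -0.81, but its pairs ranged from -1.43 to -0.42 and its adjusted p was 0.215. WDR75 was the 1 named member above 0, at 0.13.

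RNA polymerase I and III subunits and factors, which make ribosomal and transfer RNA, were all on the same side: 11 of 35 were named, 11 lay below 0 and 7 were lower, with a median of -0.38. GTF3C2, a subunit of the polymerase III initiation factor TFIIIC, measured 6.24, 6.31 and 6.30 with Pd and 5.65, 5.62 and 5.95 with PIM-Pd, for a difference of -0.54 (adjusted p = 0.144). The medians of pairs 1 to 3 were alike, at -0.365, -0.387 and -0.345. Leaving out PIM-Pd replicate 1 gave a median of -0.23 with 4 members lower, and leaving out Pd replicate 2 gave -0.23 with 3 lower. Cytosolic tRNA synthetases (7 of 22 named) had 7 below 0, 4 lower and a median of -0.32, or -0.20 with 3 lower without PIM-Pd replicate 1, and the count was 2 without PIM-Pd replicate 3.

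Cap-dependent translation factors, on which PIM kinases are known to act, had 5 of 40 members named, with 4 lower, 1 higher and a median of -0.33, or -0.25 with 2 lower and 1 higher without PIM-Pd replicate 1. The count of 4 was 2 as well without PIM-Pd replicate 3 and without Pd replicate 2. The scaffold EIF4G1 measured 8.03, 8.38 and 8.20 with Pd and 7.69, 7.95 and 7.75 with PIM-Pd. The arrays did not overlap, and the difference was -0.41 (adjusted p = 0.162). The translational repressor EIF4EBP1 had -0.33 (95% interval -0.62 to -0.04, adjusted p = 0.416), with pair 2 on the other side at 0.09. The 1 higher member was PDCD4, an inhibitor of the helicase eIF4A, with 6.96, 6.74 and 6.69 with Pd and 7.44, 7.63 and 7.65 with PIM-Pd. It was separate in all arrays and differed by 0.78 (adjusted p = 0.113).

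The mTORC1 list (5 of 32 named) had a median of -0.06, with 1 member higher and 1 lower. DEPTOR, an mTOR-binding inhibitor that is abundant in some myelomas, measured 9.49, 9.27 and 9.56 with Pd and 8.31, 9.08 and 8.27 with PIM-Pd. Pair 2 differed by -0.19 where pairs 1 and 3 differed by -1.18 and -1.29, and the fitted difference was -0.89 (adjusted p = 0.0854). PIK3IP1, an inhibitor of PI3K, was the higher member, at 0.51 (adjusted p = 0.147). The median of the list was 0.01 without PIM-Pd replicate 1, -0.11 without Pd replicate 2 and -0.17 without PIM-Pd replicate 3, and 2 members were lower without PIM-Pd replicate 3 or Pd replicate 3.

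Amino acid supply genes under ATF4 (14 of 32 named) had 5 above and 9 below 0, 1 higher, 4 lower and a median of -0.15. The leucine transporter SLC7A5 measured 7.53, 7.81 and 7.71 with Pd and 7.17, 6.93 and 7.01 with PIM-Pd. Its arrays were apart in every pair, and it came near the threshold at -0.65 (adjusted p = 0.0584). Unfolded protein response and secretory genes (5 of 36 named) all lay above 0, with a median of 0.18 and 1 higher, the chaperone HSP90B1 at 0.47 (adjusted p = 0.225), or 2 higher without PIM-Pd replicate 1, Pd replicate 1 or Pd replicate 2. Without the pairing the ATF4 list had 0 higher and 4 lower.

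Fatty acid synthesis had the lowest median of the lists, -0.45, with 5 of 18 members named, 5 below 0 and 3 lower. Beside ACACA these were fatty acid synthase (FASN, -0.57, adjusted p = 0.144) and ATP citrate lyase (ACLY, -0.45, adjusted p = 0.144). The median was -0.49 with 4 lower without PIM-Pd replicate 1, and -0.41 without PIM-Pd replicate 2. In the latter fit ribosome biogenesis had a lower median, -0.48, so the rank did not hold in every fit. Glycolytic enzymes (8 of 24 named) had 2 above and 6 below 0, 3 lower and a median of -0.23, with 1 lower without PIM-Pd replicate 3, Pd replicate 1 or Pd replicate 2. Cholesterol synthesis and uptake (11 of 27 named) had a median of -0.07 with 2 lower. That count was 0 without the pairing, with array weights and without PIM-Pd replicate 1, PIM-Pd replicate 2 (1 higher), Pd replicate 1 or Pd replicate 2, and 1 without Pd replicate 3, Control replicate 1 or 2 or PIM replicate 1 or 3. Respiratory chain and ATP synthase subunits (6 of 60 named) had 6 below 0, 3 lower and a median of -0.24.

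**Figure D4:**
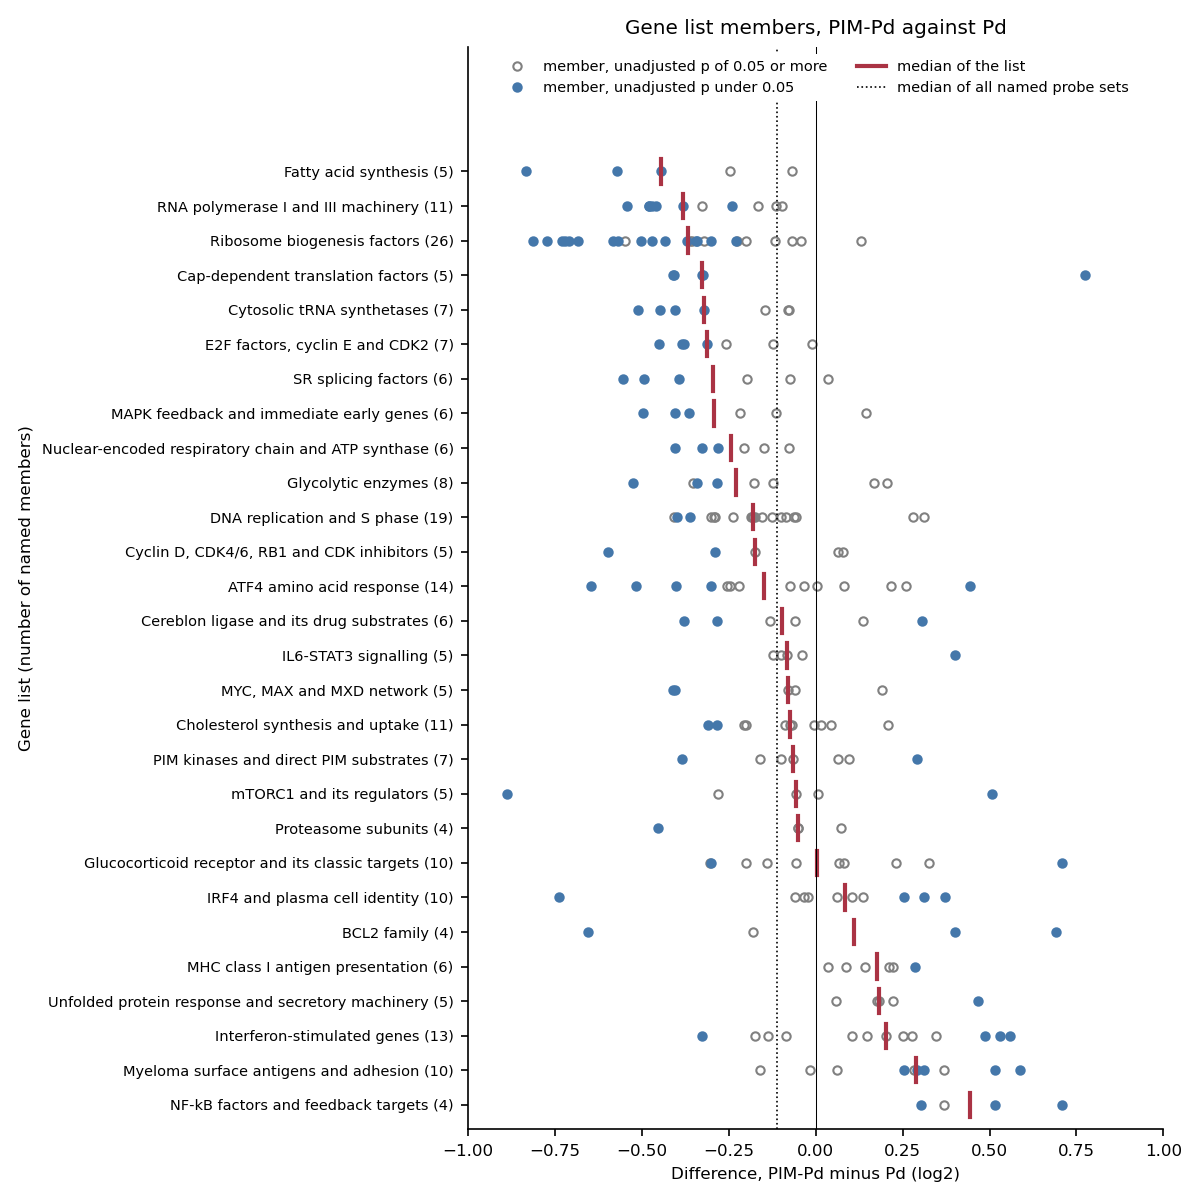
Difference between PIM-Pd and Pd (log2, x axis) of each named member of the lists with at least 4 named members (y axis, number of named members in brackets), filled where the unadjusted limma p is under 0.05, with a red bar at the median of the list. The medians run from -0.45 for fatty acid synthesis to 0.44 for NF-kB factors, beside -0.11 for all named probe sets (dotted line).

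In the cell cycle lists, cyclin D and its partners (5 of 15 named) had 2 lower and a median of -0.17. E2F factors with cyclin E and CDK2 (7 of 16 named) had 7 below 0, 4 lower and a median of -0.31. These included E2F2 at -0.45 and the phosphatase CDC25A, a PIM substrate, at -0.39. The median was -0.25 without PIM-Pd replicate 1 and -0.46 without PIM-Pd replicate 2. No member of this list had arrays apart, and the count of 4 lower was 0 without the pairing, 0 without Pd replicate 2, 1 without Pd replicate 3, 2 without PIM-Pd replicate 1 (beside 1 higher), and 2 without PIM-Pd replicate 3 or Pd replicate 1. DNA replication genes (19 of 42 named) had 17 below 0 but 2 lower, with a median of -0.18, and pair 2 lay on the other side with a median of 0.07. Without PIM-Pd replicate 1 the median was -0.05 with 2 higher and 2 lower. Without PIM-Pd replicate 2 it was -0.27 with 6 lower. The count lower was 0 without Pd replicate 2, 1 without PIM-Pd replicate 3 and 4 without PIM replicate 2. Mitosis genes (3 of 36 named) had 1 higher, the spindle protein ASPM at 0.49, and a median of -0.08. The p53 targets (3 of 24 named) had 0 higher, 0 lower and a median of -0.19.

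PIM kinases and their direct substrates (7 of 17 named) had 1 higher, 1 lower and a median of -0.06, which was 0.04 without PIM-Pd replicate 1 and -0.14 without Pd replicate 2. The 1 lower was 0 without PIM-Pd replicate 1 or 3 or any 1 of the Pd arrays and 2 without PIM-Pd replicate 2, the 1 higher was 0 without PIM-Pd replicate 3 or Pd replicate 2, and both were 0 without the pairing. The MYC, MAX and MXD network (5 of 14 named) had 2 lower, MYC and MXI1, and a median of -0.08, with 1 higher besides without Pd replicate 1. Cereblon ligase genes and drug substrates (6 of 20 named) had 1 higher, 2 lower and a median of -0.10, and the count lower was 0 without PIM-Pd replicate 1 or Pd replicate 1 and 1 without PIM-Pd replicate 2 or 3, Pd replicate 2 or the pairing. MAPK feedback and immediate early genes (6 of 32 named) had 3 lower and a median of -0.29, with the phosphatase DUSP4 at -0.36 and the inhibitor SPRY1 at -0.50. SR splicing factors (6 of 20 named) had 3 lower and a median of -0.30, with SRSF2 at -0.56. Proteasome subunits (4 of 36 named) had 1 lower and a median of -0.05, and autophagy and lysosome genes (2 of 29 named) had 0 higher, 0 lower and a median of -0.13.

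Lists of plasma cell and immune genes had medians on both sides of 0. Myeloma surface antigens and adhesion molecules (10 of 26 named) had 8 above 0, 5 higher, 0 lower and a median of 0.29, or 0.21 with 3 higher and 1 lower without PIM-Pd replicate 1. The count of 5 higher was 2 without the pairing, 2 without PIM-Pd replicate 3, 2 without Pd replicate 1, 3 without Pd replicate 3 and 0 without replicate 3 of every group. Pair 2 had a median of 0.05, against 0.28 and 0.24 in pairs 1 and 3, and 1 member had arrays apart. Their members included the Wnt inhibitor DKK1 (0.59, adjusted p = 0.299), SLAMF7 (0.31, adjusted p = 0.395), the chemokine receptor CXCR4 (0.29, adjusted p = 0.427) and CD38 (0.25, adjusted p = 0.394). Pairs 1 to 3 of CD38 differed by 0.25, 0.27 and 0.24, a narrow range for 1 gene. The list of IRF4 and plasma cell identity genes (10 of 28 named) had 3 higher, 1 lower and a median of 0.08. The median was -0.01 without PIM-Pd replicate 1 and 0.16 without PIM-Pd replicate 2. The count of 3 higher was 0 without the pairing, 0 without PIM-Pd replicate 2 and 1 without PIM-Pd replicate 1 or any 1 of the Pd arrays. Its lower member was the adhesion molecule NCAM1 (CD56), with 7.44, 7.45 and 7.71 with Pd and 6.98, 6.84 and 6.56 with PIM-Pd. These were apart in all arrays, for a difference of -0.74 (adjusted p = 0.144), after a difference of 1.38 between Pd and Control on the same Pd arrays (adjusted p = 0.000381).

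Interferon-stimulated genes (13 of 42 named) had 9 above and 4 below 0, 3 higher, 1 lower and a median of 0.20. It was 0.18 with 6 higher and 0 lower without PIM-Pd replicate 1, 0.11 with 2 higher and 0 lower without PIM-Pd replicate 3 and 0.30 without PIM-Pd replicate 2, and 0 were lower without Pd replicate 1, Pd replicate 3 or the pairing. Pair 1 went the other way, with a median of -0.10, against 0.13 and 0.20 in pairs 2 and 3. The RNA sensor IFIH1 measured 7.62, 7.47 and 7.45 with Pd and 7.96, 8.12 and 8.04 with PIM-Pd, apart in all arrays, at 0.53 (adjusted p = 0.144). MHC class I antigen presentation genes (6 of 20 named) had 6 above 0, 1 higher and a median of 0.18, with 0 higher without PIM-Pd replicate 3, Pd replicate 1, Control replicate 2 or PIM replicate 1 or 3. The IL6-STAT3 list (5 of 18 named) had 1 higher, MCL1, and a median of -0.08, with 0 higher without PIM-Pd replicate 1.

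In the BCL2 family (4 of 16 named), 2 members were higher and 1 lower, with a median of 0.11, or 1 higher without PIM-Pd replicate 1. The anti-apoptotic BCL2 measured 6.47, 6.62 and 6.85 with Pd and 7.27, 7.23 and 7.51 with PIM-Pd, a difference of 0.69 (adjusted p = 0.118). MCL1, the anti-apoptotic member on which plasma cells rely, differed by 0.40 (adjusted p = 0.309). The pro-apoptotic BID lay on the other side, with 6.96, 6.96 and 7.12 with Pd, 6.43, 6.41 and 6.24 with PIM-Pd and a difference of -0.66 (adjusted p = 0.144). All 3 genes had arrays that did not overlap, and none passed the threshold.

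NF-kB factors and feedback targets had the highest median, 0.44, over 4 of 25 members, with 4 above 0 and 3 higher. The list was carried by pairs 1 and 3, with medians of 0.78 and 0.88, against -0.13 in pair 2. CCL4, an inflammatory chemokine, measured 5.52, 6.22 and 5.86 with Pd and 6.94, 4.97 and 6.80 with PIM-Pd, so that PIM-Pd replicate 2 was the lowest of the 6 arrays. CCL3, its neighbour in function, measured 9.89, 9.90 and 9.49 with Pd and 10.91, 9.61 and 10.32 with PIM-Pd, in the same order of pairs. Leaving out PIM-Pd replicate 2 gave a list median of 0.78 with 4 higher, and leaving out PIM-Pd replicate 1 gave 0.26 with 1 higher. There was also 1 higher without PIM-Pd replicate 3, Pd replicate 1 or Pd replicate 3. Without Pd replicate 2 the median was 0.74 with 4 higher.

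The medians of the remaining lists are given as the range over fits with 1 of the 12 arrays left out. The MYC network ran from -0.28 (without Pd replicate 2) to -0.02 (without PIM-Pd replicate 2), and cyclin D with its partners from -0.30 (without PIM-Pd replicate 1) to -0.02 (without PIM-Pd replicate 2). Cholesterol synthesis and uptake ran from -0.27 (without Pd replicate 3) to 0.00536 (without Pd replicate 1), and proteasome subunits from -0.15 (without PIM-Pd replicate 2) to 0.03 (without PIM-Pd replicate 1). Cereblon ligase genes ran from -0.19 (without PIM-Pd replicate 1, with 1 higher and 0 lower) to -0.04 (without PIM-Pd replicate 3), and glucocorticoid targets from -0.09 (without PIM-Pd replicate 3) to 0.02 (without Pd replicate 2). The range was -0.19 to -0.06 for ATF4 genes, -0.27 to -0.15 for glycolytic enzymes, -0.36 to -0.20 for MAPK feedback genes, -0.35 to -0.22 (the latter without PIM-Pd replicate 1) for SR splicing factors and -0.31 to -0.21 for the respiratory chain. It was 0.10 to 0.27 for secretory genes, 0.10 to 0.22 for MHC class I genes, 0.03 (without PIM-Pd replicate 1) to 0.16 for the BCL2 family and -0.08 to -0.01 for IL6-STAT3 genes. Lists with fewer than 4 named members were not refitted.

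The list members named as examples did not pass the threshold without PIM-Pd replicate 1 either. PDCD4 and SLC7A5 came nearest, at 0.99 and -0.76 (both with an adjusted p of 0.0532). Among ribosome genes UTP20 had -0.62, NOL6 -0.52, DDX21 -0.48 and DKC1 -0.47, all nearer to 0 than with the array, and GTF3C2 had -0.45. EIF4G1 had -0.42, DEPTOR -0.76, FASN -0.69, NCAM1 -0.92, SRSF2 -0.36 and SPRY1 -0.33. Among apoptosis and immune genes BCL2 had 0.74, MCL1 0.27, BID -0.67, BIRC3 0.69 and IFIH1 0.56, while CCL3 had 0.24 and CCL4 0.00332.

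A further question was whether adding PIM447 to Pd differed from giving PIM447 alone. PIM447 alone against Control, at 24 h, gave 0 calls by limma, with 1346 probe sets at an unadjusted p under 0.05 and a smallest adjusted p of 0.0719. Across 17710 probe sets, the difference on adding PIM447 to Pd and the difference of PIM447 alone correlated at r = 0.157, and at 0.24 over the 1909 named ones. Without PIM-Pd replicate 1 these were 0.0537 and 0.163. The first was 0.0964 without Pd replicate 2 (0.153 over the named ones), 0.104 without PIM replicate 2 and 0.231 without PIM-Pd replicate 2, and with an array left out the replicate term links both differences. These are descriptions over genes: the comparisons share no array, but share the normalization and the replicate numbers, and differ in time. The SD of the differences was 0.188 with Pd and 0.17 without it.

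The direct test of the difference between both effects called 2 probe sets (0.0113%), with 1210 at an unadjusted p under 0.05. EFEMP1, an extracellular matrix fibulin, measured 4.17, 4.06 and 4.16 with Pd and 4.93, 4.71 and 5.11 with PIM-Pd, while it measured 4.46, 4.13 and 4.44 in Control and 3.38, 3.79 and 3.83 with PIM447 alone. The order of the groups was opposite, with no overlap in either comparison, but neither effect alone passed the threshold. The effects were 0.79 with Pd (adjusted p = 0.0584) and -0.68 without it (adjusted p = 0.365), and their difference was 1.46 (95% interval 1.05 to 1.88, adjusted p = 0.0498). ARHGAP6 gave -0.84 with Pd and 0.33 without it (adjusted p = 0.531 for the latter), where PIM447 alone measured 8.38, 8.12 and 8.20 and Control 8.01, 7.86 and 7.85, for a difference of -1.17 (95% interval -1.51 to -0.83, adjusted p = 0.0498). Both calls were at the edge of the threshold. Without PIM-Pd replicate 1 the test called 0, with 1377 at an unadjusted p under 0.05 (EFEMP1 1.435 and ARHGAP6 -1.11, both with an adjusted p of 0.171). It also called 0 without PIM-Pd replicate 3, without any 1 of the Pd or Control arrays and without PIM replicate 1 or 3, with 959 to 1341 at an unadjusted p under 0.05, and 1 without PIM replicate 2.

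**Figure D5:**
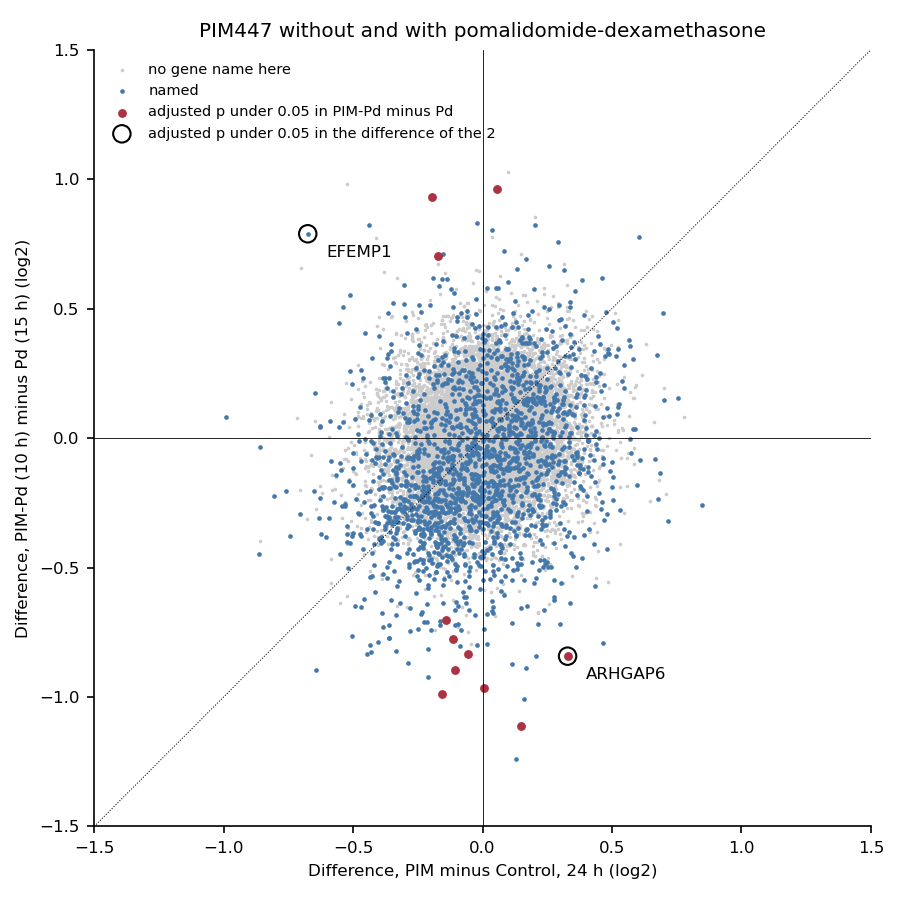
Difference of PIM447 alone from Control at 24 h (log2, x axis) against the difference of PIM-Pd from Pd (log2, y axis) for 17710 probe sets. Across all points r was 0.157, and the ringed EFEMP1 (-0.68 and 0.79) and ARHGAP6 (0.33 and -0.84) are the 2 probe sets whose difference between both effects passed the threshold.

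For the other 10 of the 11 called probe sets, the difference of effects was not called. It was 1.13 for AKR1C3 (adjusted p = 0.111) and 0.90 for VIM (adjusted p = 0.162), so these genes are not shown to respond to PIM447 differently with Pd than without it. For GRHL3 it was -1.26 (adjusted p = 0.0681), and GRHL3 was called in 3 of 24 other fits, without the pairing (adjusted p = 0.0292), with a variance prior following mean intensity (adjusted p = 0.0248) and with array weights (adjusted p = 0.047). Ribosome biogenesis factors had a median of -0.20 with PIM447 alone and -0.37 on adding it to Pd, with a median difference of -0.17. Cholesterol synthesis and uptake went the other way, with -0.41 for PIM447 alone, -0.07 on adding it to Pd and a median difference of 0.28, and no member of either list was called in the test of that difference.

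Promoters of the genes were searched for sequence features, as far as RefSeq (GRCh38.p14) gives them, in windows of 250 bases before to 50 bases after the start site. The E-box CACGTG, which MYC with MAX can bind and which reads the same on both strands, was held by 2548 of 35116 promoters (7.26%), or 8.77% of genes. Of 1544 named genes with a promoter 225 held it (14.6%), of 359 named genes lower at an unadjusted p under 0.05 it was 75 (20.9%), and of 127 higher it was 18 (14.2%). Ribosome biogenesis factors held it in 14 of 23 genes (60.9%). Among the called genes with a promoter the share was 1 of 9 (11.1%), the gene being WDR77. The IRF element GAAANNGAA or its reverse was found in 9.86% of all genes, 10.1% of named genes, 7.24% of the named lower and 18.1% of the named higher (23 of 127). A core amino acid response element (TGATGCAA) and a sterol element (TCACNCCAC), on either strand, were in 1.04% and 1.30% of named genes, against 1.08% and 1.39% of all genes. No motif was scored for overlap with another.

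The E-box windows of WDR77, the called gene that held one, and of 4 ribosome biogenesis factors with differences between -0.77 and -0.57 are shown because these genes lay on the lower side together. Other ribosome biogenesis factors that held an E-box included LYAR at -0.50, FBL at -0.20 and RRP9 at -0.04. No E-box window was extracted for DKC1 (-0.81), NOP16 (-0.73), NOLC1 (-0.69) or WDR12 (-0.58), which fell about as far as the 4 factors shown. Whether the E-box goes with the size of the difference was not tested. Each line gives 30 bases from 5' to 3' on the strand of the gene, with the E-box in capitals. The WDR77 window is chr1:111449229-111449258 (minus strand), UTP20 chr12:101280083-101280112 (plus strand), NOL6 chr9:33473894-33473923 (minus strand), DDX21 chr10:68956604-68956633 (plus strand) and NOP14 chr4:2963374-2963403 (minus strand), all GRCh38.p14.
WDR77: tcagaggtgcacCACGTGgggtttgctgcc
UTP20: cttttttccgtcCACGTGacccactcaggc
NOL6: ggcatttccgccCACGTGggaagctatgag
DDX21: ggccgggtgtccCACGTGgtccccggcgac
NOP14: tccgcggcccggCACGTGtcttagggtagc
The E-box began at base 11 of the transcript in WDR77, 14 in NOL6 and 16 in NOP14, and -10 in UTP20 and -31 in DDX21, counted from the start site. A match describes the letters in the window and shows neither a bound site nor a cause of the difference.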

How the data were processed

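Clariom S human arrays of 12 MM.1S samples were used, 3 each of Control, PIM, Pd and PIM-Pd. The deposited values are log2 expression, which the authors made by RMA in oligo 1.44.0 (R 3.5.0, per the submitters' processing notes) with a custom BrainArray definition of Ensembl genes, and they were not normalized again. The methods name SAM, which was not used here. Each of the 17710 probe sets was fitted with limma 3.58.1 in R 4.3.3, with group and replicate number as terms over 12 arrays, the contrast PIM-Pd minus Pd, a two-sided moderated test and Benjamini-Hochberg adjustment, called at an adjusted p under 0.05. The contrast of that difference with PIM minus Control was fitted likewise. Tables and figures were made in Python 3.11.15 with pandas 2.3.3 and matplotlib 3.10.9. The code was tested on simulated data. No probe set was filtered out.

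The labels mark the replicate numbers as pairs. Deviations of same-numbered PIM-Pd and Pd arrays from their group means correlated at 0.0728, 0.0588 and 0.12 over probe sets, in each case the highest r of that PIM-Pd array with any Pd array.

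Symbols came from the identifier and symbol columns of the study's gene tables, whose fold changes and tests were not used (1909 of 17710 probe sets, 10.8%), with 64 updated through RefSeq synonyms. Genes named in the text were called ones with the same sign in all 3 pairs (up to 15 each way), up to 4 called members of each list, up to 5 called in the difference of effects and 20 fixed genes, 16 of which have a name. List members that were not called were named as examples after their values were seen. The 33 gene lists, 6 marker lists, the members of the comparison and the fixed genes, 8 of which the study followed by RT-qPCR, were chosen with earlier results of these data known.

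Alternatives were a fit without the replicate block, a fit of the 6 arrays alone, other variance priors, filters on dim probe sets, 3 further scalings, array weights, a 2-fold limit and each replicate left out. The fits that leave out a single array were chosen after seeing the data.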

Additional observations from a re-analysis of the deposited data

Results flagged for a closer look

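For EFEMP1 the effect of PIM447 with Pd minus its effect without Pd was 1.46 (limma, adjusted p = 0.0498), from 0.79 with Pd (adjusted p = 0.0584) and -0.68 without it (adjusted p = 0.365). For ARHGAP6 the difference between both effects was -1.17 (limma, adjusted p = 0.0498), from -0.84 with Pd (adjusted p = 0.0146) and 0.33 without it (adjusted p = 0.531). Neither gene is shown to respond to PIM447 alone, and EFEMP1 is not shown to respond with Pd. A difference between the effects of PIM447 in both settings is what singled out these 2 probe sets among 17710. The settings also differ in time, since PIM447 alone was given for 24 h, PIM-Pd for 10 h and Pd for 15 h, and drug and time cannot be told apart.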

How the results depend on the processing

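All 11 called probe sets kept their sign under every alternative that tested them, but their calls did not hold throughout. The kept sign is little support, since the PIM-Pd and Pd arrays of all 11 did not overlap to begin with. The count of 11 was 51 with a variance prior following mean intensity (15 higher, 36 lower, all 11 shared), 20 with array weights and 17 with the dimmest probe sets left out (13282 tested), again with all 11 shared, and 1 with a 2-fold limit. It was 14 with 8855 probe sets tested, which leaves out AKR1C3 and TGFBR3 and shares the other 9. Rescaling gave 9 after quantile normalization and 9 after cyclic loess, both without RAB15 and STEAP3, and 10 with arrays centred on the median, without ENSG00000087074. The fit of the 6 arrays alone, with the replicate block, called 0, with 1844 at an unadjusted p under 0.05 and a smallest adjusted p of 0.104. Leaving out 1 array or 1 replicate gave 0 to 15 calls. The cause was not tested.

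Without the replicate block 14 probe sets were called (1 higher, 13 lower), 8 of them shared, so that VIM, AKR1C3 and ENSG00000087074 were no longer called. The unblocked fit called 3 in the difference of effects, where the main value was 2, and 1 member of the ATF4 list. It changed no other call of the named genes.

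The 2 calls in the difference of effects became 0 with a robust variance prior and with arrays centred on the median. They also became 0 with dim probe sets left out (13282 or 8855 tested), where the stricter filter removed EFEMP1 itself. These fits had 743 to 1200 at an unadjusted p under 0.05. With 1 array or replicate left out there were 0 to 3 calls. Apart from the removal of EFEMP1, the cause was not tested.

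Signs reversed for 5 genes with differences near 0. IRF4 was 0.011 after quantile normalization and 0.0162 after cyclic loess, and -0.14 to 0.0637 with 1 array or replicate left out (above 0 without replicate 2 or 3, PIM-Pd replicate 2 or 3 or Pd replicate 1). PIM1 ran from -0.304 to 0.0877 in those fits (above 0 without replicate 3 or Pd replicate 3), IKZF1 from -0.16 to 0.0589 (above 0 without Pd replicate 1), FKBP5 from -0.134 to 0.257 (below 0 without replicate 2, PIM-Pd replicate 2 or Pd replicate 3) and DDIT4 from -0.171 to 0.0167 (above 0 without replicate 1 or PIM-Pd replicate 1). Over all named genes and alternatives, 553 values kept sign and side of the threshold, 124 lost a call, 5 gained one and 15 reversed, and the cause was not tested. Dim probe sets may lie near background, where arrays resolve differences less well, and this was not tested.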

Other observations

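Just outside the threshold, 46 probe sets had an adjusted p of 0.05 to 0.1 by limma (39 named, 11 higher and 35 lower). Among the lower ones were PRMT1, a protein arginine methyltransferase, at -0.65 (adjusted p = 0.0584), GEMIN4, of the SMN complex that assembles spliceosomal particles, at -0.74 (adjusted p = 0.0816), FKBP4, a co-chaperone of steroid receptors, at -0.77 (adjusted p = 0.0896), the zinc transporter SLC39A14 at -0.74 (adjusted p = 0.0543) and PPAT, of purine synthesis, at -0.68 (adjusted p = 0.0989). Higher ones included CFLAR, an inhibitor of caspase 8 activation, at 0.58 (adjusted p = 0.098). They were chosen after their values were seen.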
